A study of Mus musculus with 3 samples.

Results

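The 10 genes described here are Id1, Id2, Id3 and Id4, the BMP ligand genes Bmp4 and Bmp7, the inhibitory SMAD genes Smad6 and Smad7, and the genes of the decoy receptor Bambi and the secreted antagonist Grem1. They were taken by symbol: each probe set whose only annotated gene was one of these 10 was included, which gave 17 of the 45101 probe sets in the table, and 10 of 18194 genes. The RNA came from melan-a NRAS61K cells, immortalized mouse melanocytes carrying the NRAS61K oncogene, kept in doxycycline at 1 µg/ml for 6, 14 or 28 days. All cells analysed here thus carried the oncogene and had the drug, without an untreated array beside them. The sources used here do not say how the oncogene is driven or whether the line is a single clone. The series title concerns tumorigenic cells that arise from cells made senescent by this oncogene, and the series text counts 4 samples, of which the 3 arrays at these times were analysed.

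ID proteins are helix-loop-helix proteins without a DNA-binding domain. They pair with E proteins such as TCF3, TCF4 and TCF12 and keep them from binding DNA together with tissue-specific partners, which in many cell types restrains differentiation. BMP ligands bind paired type I and type II receptors, the receptors phosphorylate SMAD1, SMAD5 and SMAD9, and these enter the nucleus with SMAD4. The ID genes and the inhibitory SMAD genes are classical direct targets of this route. SMAD6, SMAD7 and BAMBI act back on the receptors, while GREM1 binds BMP ligands outside the cell. In the embryo BMP signals take part in forming the neural crest, from which melanocytes arise.

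With 1 array per time point there was no replicate check and no test, and every difference below describes a pair of arrays. The values were read as log2 values, an inferred base. A cut for background was set on every array at the 90th percentile over 90 probe sets of genes not used by pigment cells, and lay at 22.72 (day 6), 22.57 (day 14) and 22.77 (day 28). Of the 18194 genes, 11324, 11540 and 11346 lay above it in the same order of time. For a gene with several probe sets, the one with the highest mean over the arrays is called the main one. The comparisons are called the first step (day 14 against day 6), the second step (day 28 against day 14) and the whole interval (day 28 against day 6). Where a gene had several probe sets, their disagreement gave the single available estimate of error, which covers measurement and not culture. This within-gene SD was 0.30 log2 units in the first step, 0.24 in the second and 0.32 over the whole interval. The columns had been quantile normalized, so each difference is relative to the other genes.

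Of the 17 probe sets, 12 lay above the background on all 3 arrays, 1 on some of them and 4 on none. Of the genes, 8 could be followed, and both ligand genes, Bmp4 and Bmp7, lay below the background throughout. The 4 ID genes took 4 different courses. Id4 was higher at each later time, Id3 was highest at day 14 and lowest at day 28, Id2 was higher at day 14 and stayed near that level, and Id1 was lowest at day 14. Among the feedback genes, Smad6 and Bambi were more than 2-fold higher at day 14 than at day 6, Grem1 was more than 2-fold lower, and Smad7 differed little on any array.

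**Figure D1:**
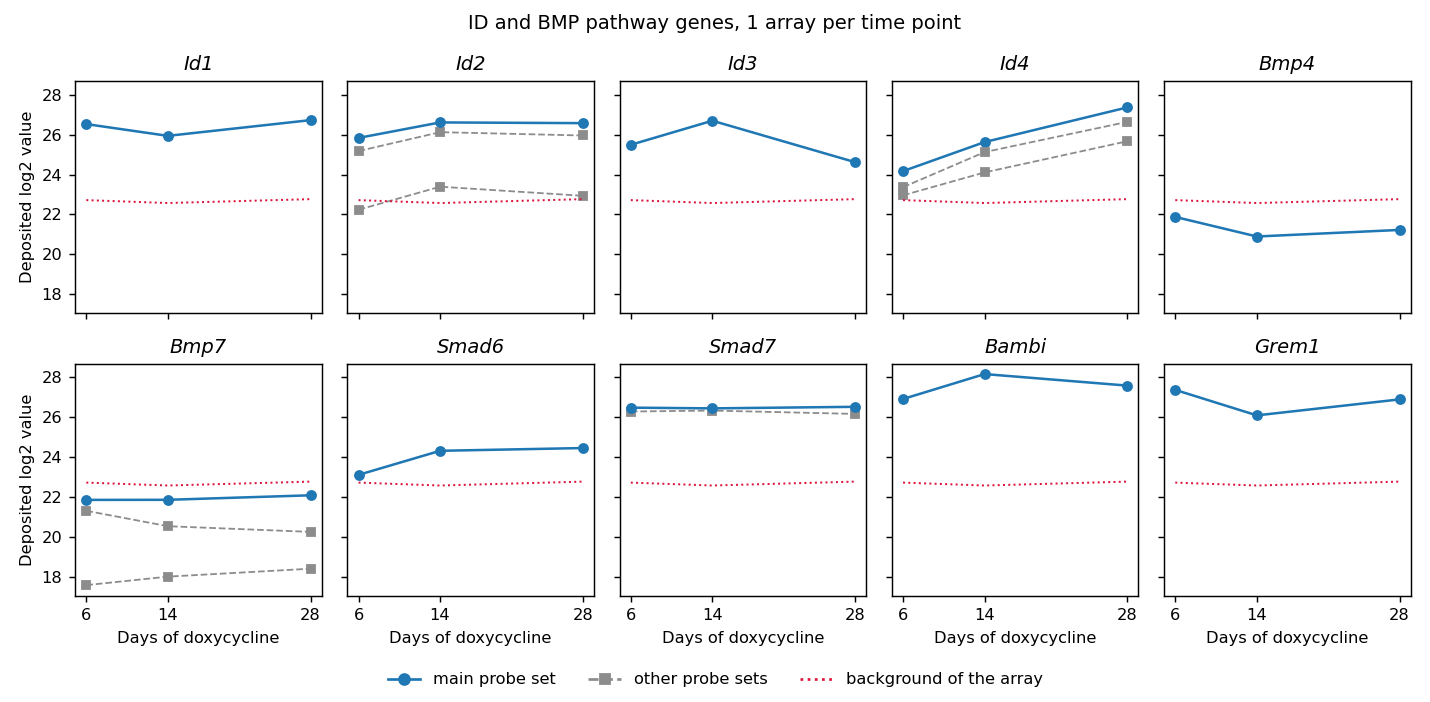
Deposited log2 value (vertical axis) of each gene at 6, 14 and 28 days of doxycycline (horizontal axis), 1 array per time point. Blue circles are the main probe set, grey squares the other probe sets, and the red dotted line the background of each array. The 3 probe sets of Id4 climb together, Id3 peaks at day 14, and all probe sets of Bmp4 and Bmp7 stay below the dotted line.

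Id4 had the widest course of the 10 genes. Its main probe set, 1423259_at, read 24.17 at day 6, 25.63 at day 14 and 27.36 at day 28. The other probe sets read 23.37, 25.13 and 26.64 (1450928_at) and 22.96, 24.11 and 25.67 (1423260_at) in the same order of time. All 3 were above the background on every array and highest at day 28, although 1423260_at began only just above it. Over the whole interval the main probe set of Id4 stood 9.14-fold higher at day 28 than at day 6, a log2 difference of 3.19, and the 3 probe sets spanned 2.71 to 3.27. The first step, day 14 against day 6, was 2.74-fold (1.45, with a span of 1.15 to 1.76), and the second, day 28 against day 14, was 3.33-fold (1.74, with a span of 1.51 to 1.74). Each step was several times the SD between probe sets. Of the 11772 genes described over the whole interval, 42 had a higher difference than Id4, and 72 of 11798 did in the second step.

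Id3 changed direction between the steps. Its single probe set read 25.49 at day 6, 26.70 at day 14 and 24.62 at day 28. The day 14 array was the highest and the day 28 array the lowest. Id3 was thus 2.31-fold higher at day 14 than at day 6 (log2 difference 1.21) and 4.21-fold lower at day 28 than at day 14 (log2 difference -2.08). Only 14 of the 11798 genes described had a lower difference in that second step. Over the whole interval Id3 was 1.83-fold lower at day 28 than at day 6 (-0.87), under the 2-fold line. The day 14 array enters one step as the later and the other as the earlier array, so a fault in it alone would produce such a turn, and with 1 probe set there was no second reading.

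Id2 was higher at both later times. The main probe set, 1435176_a_at, read 25.84, 26.61 and 26.58 in order of time, and 1422537_a_at read 25.18, 26.12 and 25.96. The remaining one, 1453596_at, read 22.24, 23.39 and 22.94, and lay below the background at day 6. All 3 were lowest at day 6 and highest at day 14. Relative to day 6, the main probe set was 1.71-fold higher at day 14 (0.78) and 1.67-fold higher at day 28 (0.74), while day 28 and day 14 differed by -0.04, less than the SD between probe sets. In the first step 1422537_a_at gave 0.95 and 1453596_at at least 1.59-fold against the background, so the readings above the background on both arrays stayed under 2-fold.

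Id1 ran the other way from Id3. Its probe set read 26.53 at day 6, 25.94 at day 14 and 26.73 at day 28, so the day 14 array was the lowest. Its log2 difference was -0.59 for day 14 against day 6, and at day 28 it was 1.73-fold higher than at day 14 (0.79). Days 28 and 6 differed by 0.20, less than the SD between probe sets of 0.32. The ID genes therefore lay 2.04 log2 units apart in their differences in the first step, 3.81 in the second and 4.06 over the whole interval, counted from the lowest to the highest of the 4. Levels of different probe sets are not comparable, so these arrays do not show which ID transcript was the most abundant.

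**Figure D2:**
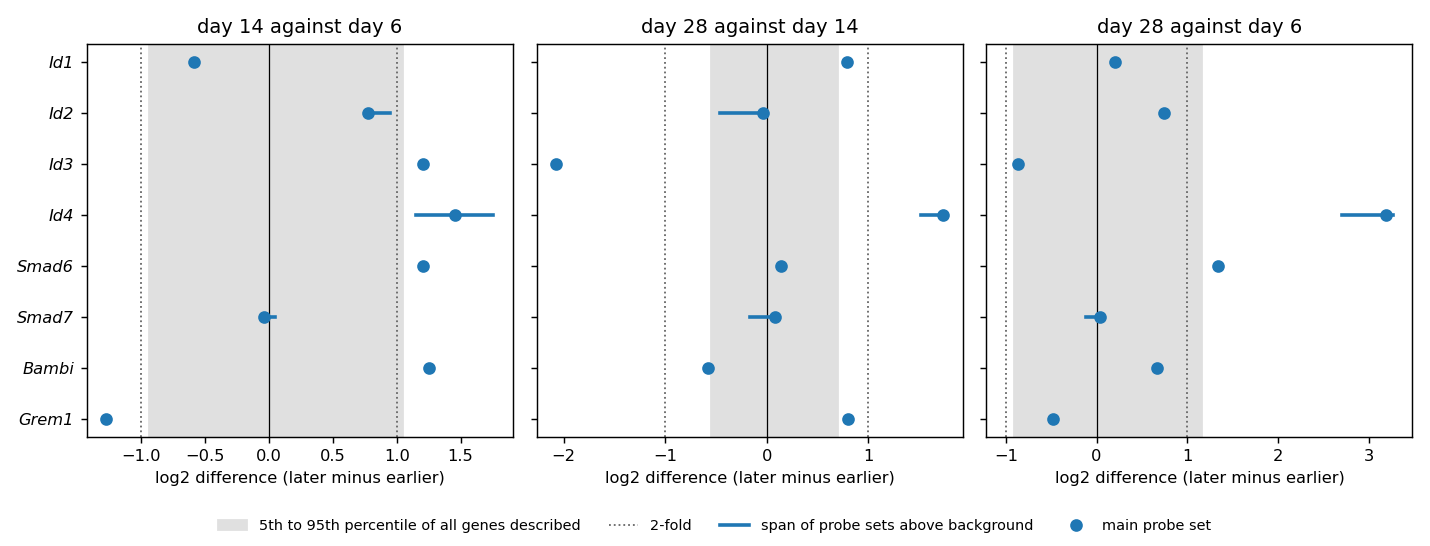
Log2 difference, later minus earlier array (horizontal axis), of the 8 genes above the background in the 3 comparisons. Circles are main probe sets, bars span the probe sets above the background on both arrays, grey bands run from the 5th to the 95th percentile of all genes described, and dotted lines mark 2-fold. Id4 lies right of the band in all 3 panels, and Id3 changes sides between the first and second panel.

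Promoter sequences of 3 ID genes and of Smad6 are shown because these genes share a known upstream route while their courses parted. Each runs 5′ to 3′ from 250 bases before to 50 after the annotated start (RefSeq, build GRCm38.p6), and capitals mark matches to the motifs searched.
Id2 chr12:25096043-25096342, minus strand: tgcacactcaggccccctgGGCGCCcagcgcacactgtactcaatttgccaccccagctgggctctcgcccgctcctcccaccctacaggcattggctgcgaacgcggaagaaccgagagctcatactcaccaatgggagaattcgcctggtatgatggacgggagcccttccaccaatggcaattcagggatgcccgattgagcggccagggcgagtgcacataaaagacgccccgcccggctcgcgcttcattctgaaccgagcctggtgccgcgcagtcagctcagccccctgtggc
Id3 chr4:136143572-136143871, plus strand: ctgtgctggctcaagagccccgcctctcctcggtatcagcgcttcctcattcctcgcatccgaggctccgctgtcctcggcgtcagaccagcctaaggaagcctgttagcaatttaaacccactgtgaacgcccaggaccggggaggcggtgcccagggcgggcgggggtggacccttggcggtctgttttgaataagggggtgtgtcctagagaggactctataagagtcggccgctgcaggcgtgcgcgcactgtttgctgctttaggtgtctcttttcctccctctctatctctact
Id4 chr13:48260866-48261165, plus strand: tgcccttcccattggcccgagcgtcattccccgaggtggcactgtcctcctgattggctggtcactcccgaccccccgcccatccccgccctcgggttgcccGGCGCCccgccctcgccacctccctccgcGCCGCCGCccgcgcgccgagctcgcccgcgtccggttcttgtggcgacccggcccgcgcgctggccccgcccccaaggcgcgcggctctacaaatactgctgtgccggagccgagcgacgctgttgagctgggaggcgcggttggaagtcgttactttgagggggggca
Smad6 chr9:64022010-64022309, minus strand: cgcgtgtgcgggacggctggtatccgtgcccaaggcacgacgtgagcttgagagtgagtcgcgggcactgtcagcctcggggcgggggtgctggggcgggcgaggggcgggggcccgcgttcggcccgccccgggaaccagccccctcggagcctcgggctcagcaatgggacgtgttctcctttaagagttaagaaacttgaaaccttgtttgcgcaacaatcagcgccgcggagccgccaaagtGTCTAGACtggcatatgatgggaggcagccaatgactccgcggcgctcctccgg

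Promoter sequence was read for 6 of the 10 genes, these 4 together with Bmp4 and Grem1. Those of Id1, Bmp7, Smad7 and Bambi were not searched, so whether they hold a motif is not known here. The motifs were searched on both strands in 32851 promoters of the same length. GGCGCC, the core of GC-rich BMP response elements, occurred in 11.9% of all promoters, and in those of Id2, Id4 and Grem1. GCCGNCGC, a GC-rich SMAD motif, occurred in 9.76% of all, and in those of Id4 and Grem1, where matches overlapped each other and the GGCGCC match. GTCTAGAC, the palindromic SMAD element, occurred in 0.213% of all promoters, and in that of Smad6, where it begins 4 bases before the start and runs across it. In Id4 the GGCGCC match begins 148 bases and the GCCGNCGC match 119 bases before the start. The E-box CACGTG, in 7.15% of all promoters, was matched in that of Bmp4. The cAMP response element TGACGTCA (1.79% of all), the AP-1 motif TGANTCA (7.81%) and the EGR1 motif GCGGGGGCG (2.91%) had no match in the 6, and Id3 had no match to any of the 7 motifs. The 6 promoters held 60.0% to 73.3% G and C, against a median of 52.7% over all promoters. The shares of all promoters are thus not a matched comparison for motifs rich in G and C, such as GGCGCC. A match is a string of letters and not a measured site. Sequence further from the start was not searched, so a missing match does not show that a gene lacks the motif.

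The inhibitory SMAD genes parted as well. Smad6, whose product interferes with SMAD1 and type I receptors, read 23.11 at day 6, 24.31 at day 14 and 24.45 at day 28. The day 6 value was close to the background of 22.72, and both later arrays were clearly higher. Relative to day 6, Smad6 was 2.31-fold higher at day 14 (1.20) and 2.54-fold higher at day 28 (1.34), with 0.14 between days 28 and 14. Smad7, which inhibits both the BMP and the TGF-beta branch, read 26.47, 26.44 and 26.52 on its main probe set, 1443771_x_at, and 26.28, 26.33 and 26.16 on 1423389_at. Its differences between arrays ran from -0.17 to 0.08 over both probe sets and all 3 comparisons, within the SD between probe sets of a gene.

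Bambi encodes a pseudoreceptor that lacks a kinase domain. It read 26.91 at day 6, 28.16 at day 14 and 27.58 at day 28, highest at day 14. In the first step it was 2.38-fold higher (1.25), in the second 1.49-fold lower (-0.58), and over the whole interval 1.59-fold higher (0.67). Grem1, which encodes a secreted BMP-binding protein, read 27.36, 26.09 and 26.89 in order of time, lowest at day 14. It was 2.42-fold lower at day 14 than at day 6 (-1.28), 1.74-fold higher at day 28 than at day 14 (0.80) and 1.39-fold lower at day 28 than at day 6 (-0.48). Bambi and Grem1 thus moved in opposite directions in each step. Each has 1 probe set, and the 2 steps share the day 14 array.

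Bmp4 read 21.88, 20.90 and 21.23 in order of time, not above the background on any array. The 3 probe sets of Bmp7 read between 17.58 and 22.08 over all arrays and were not above it either. No fold is given for either ligand gene. Such readings do not show that the transcripts were absent.

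Counted together, 4 of the 8 genes followed were at least 2-fold higher at day 14 than at day 6 (Id3, Id4, Smad6 and Bambi) and 1 was lower (Grem1), where 5.46% of the 11855 genes described were higher and 3.91% lower. With all arrays shifted to equal hybridization controls, the higher and lower genes of the whole table numbered 557 and 632 in place of 647 and 464, while the same 4 and 1 of these genes were called. In the second step, day 28 against day 14, 1 gene was higher (Id4) and 1 lower (Id3), where 2.21% of all genes were higher and 1.45% lower. Over the whole interval, day 28 against day 6, 2 were higher (Id4 and Smad6) and 0 lower, where 6.57% of all genes were higher and 4.04% lower. At a 1.5-fold line the first step had 5 higher and 2 lower (13.5% and 14.3% of all genes), the second 3 higher and 1 lower (7.60% and 4.40%), and the whole interval 4 higher and 1 lower (15.7% and 12.2%). The median difference of the 8 genes was 0.99 in the first step, 0.11 in the second and 0.43 over the whole interval, beside -0.03, 0.03 and 0.01 over all genes described. With Bmp4 and Bmp7 brought in by a 75th percentile background, the first and last of these medians were 0.39 and 0.21. The 8 genes were those above the background and had been chosen with earlier results of these arrays known, so these shares describe them and carry no independent weight.

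**Figure D3:**
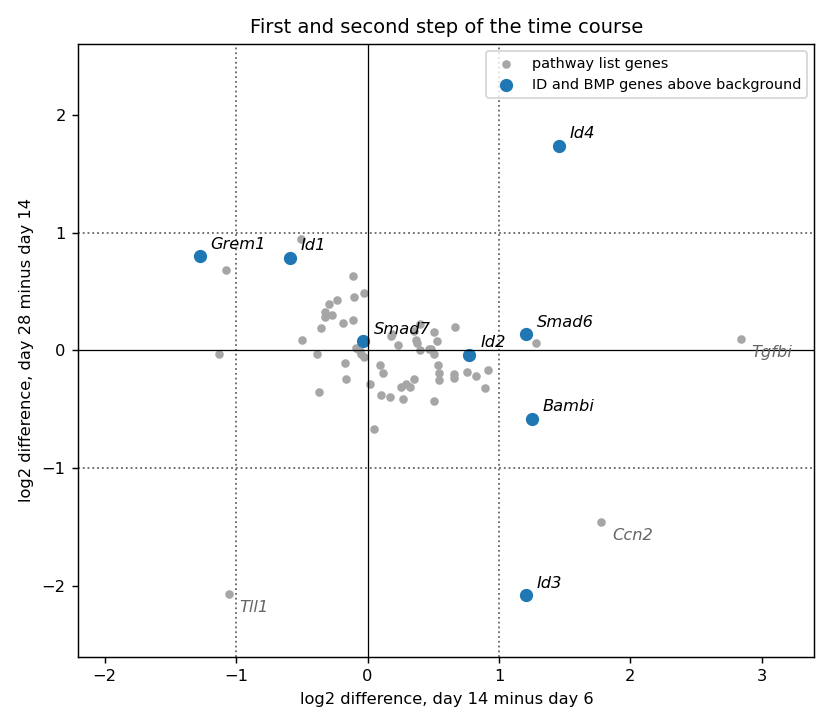
Log2 difference of day 14 minus day 6 (horizontal axis) against that of day 28 minus day 14 (vertical axis), each point 1 gene. Blue points are the 8 ID and BMP genes above the background, grey points the genes of the pathway lists above it on at least 1 array, and dotted lines mark 2-fold. Id4 (1.45, 1.74) lies alone at the upper right and Id3 (1.21, -2.08) at the lower right, while most pathway genes lie inside the 2-fold lines.

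The rest of the BMP pathway was counted on main probe sets. Of 71 other genes listed as ligands, receptors, SMADs, antagonists, regulators or targets, 66 were on the array, and 43 were described in the first step. Of these, 0 were 2-fold higher, 3 were 2-fold lower as measured (Bmper, Tll1 and Gata3, all below the background at day 14), and the median difference was 0.12, where 5.46% of all genes were higher and 3.91% lower. Counts in the second step were 0 higher and 0 lower of 41, with a median of -0.03, where 2.21% of all genes were higher and 1.45% lower. Over the whole interval they were 0 higher and 2 lower (Bmper and Tll1) of 44, with a median of 0.10, where 6.57% were higher and 4.04% lower. Other probe sets passed 2-fold for Bmpr1a, Rgmb and Nedd4l in the first step and for Rgmb, Nedd4l and Crim1 over the whole interval.

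Of 9 other ligand genes on the array, 3 lay above the background on at least 1 array, Bmp8a, Bmp8b and Gdf2. Of these, 0 were 2-fold apart, and 3 are too few to set beside the shares of all genes above. Bmp8a read 22.97, 22.81 and 22.56 in order of time, the last below the background, and Bmp8b 22.99, 23.28 and 23.00. Both lay so near the background that a 2-fold fall could not be read. Gdf2, the gene of the circulating ligand BMP9, read 24.19 at day 6, 23.69 at day 14 and 23.77 at day 28. Bmp2, Bmp5, Bmp6, Bmp10, Bmp15 and Gdf5 did not exceed the background on any array.

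On main probe sets the receptor genes shifted by less than 2-fold, but they are too few to set beside the shares of all genes. Of 10 receptor and co-receptor genes, 8 were above the background on all arrays. Of these, 7 were higher in the first step, with a median difference of 0.60, and 7 were lower in the second, with a median of -0.23. The second median was within the SD between probe sets of 0.24, and both steps share the day 14 array. In the first step the probe sets of Acvr2a gave -0.31 and 0.35, so its sign is not settled there. The median over the whole interval was 0.44. The type I receptor gene Bmpr1a read 27.21, 27.86 and 27.66 in order of time, and the type II receptor gene Bmpr2 28.25, 28.91 and 28.67. Over the whole interval the 2 probe sets of Bmpr2 gave 0.42 and -0.43, so its sign is not settled there. The same holds for Bmpr1a (-0.08 to 0.95), Acvr2a (-0.88 to 0.11) and Eng (-0.13 to 0.29). The co-receptor genes Rgma and Rgmb were higher at day 14 than at day 6 by 0.83 and 0.89, while the 6 probe sets of Rgmb gave 0.72 to 1.80 and those of Bmpr1a 0.18 to 1.07. Bmpr1b and Acvrl1 lay below the background throughout.

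Among the signal transducers, Smad1 read 26.97, 26.92 and 26.91 on its main probe set in order of time. Smad4, the shared partner, read 28.40, 28.80 and 28.80 on its own. Over the whole interval the 3 probe sets of Smad1 ran from -0.54 to -0.06 and those of Smad4 from -0.01 to 0.41. In the first step those of Smad4 ran from 0.06 to 0.40. Smad5 differed by 0.35 in the first step on its main probe set, while its 3 probe sets ran from -0.47 to 0.41. Smad9 was below the background on all arrays. All 14 intracellular regulators were above the background, and 0 were 2-fold apart on main probe sets in any comparison. Of all genes, 5.46% were higher and 3.91% lower in the first step, and 2.21% and 1.45% in the second. Over the whole interval 6.57% were higher and 4.04% lower. With 14 genes, a count of 0 cannot be told apart from these shares. The ubiquitin ligase gene Nedd4l differed by 0.27 in the first step on its main probe set, while its 4 probe sets reached 1.93, and over the whole interval they ran from -0.15 to 1.28. Ski, a repressor of SMAD-driven transcription, was 1.46-fold higher in the first step. Smurf2, another ubiquitin ligase gene, was 1.45-fold higher there on its main probe set, while its 3 probe sets ran from -0.15 to 0.53.

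Among 18 extracellular antagonist and modulator genes on the array, 10 were above the background on at least 1 array. Noggin (Nog), chordin (Chrd) and Chrdl1 were below it throughout. Bmper and the protease gene Tll1 were above the background at day 6 alone. Bmper was at least 1.27-fold lower at day 28 than at day 6 and Tll1 at least 1.31-fold lower, both measured against the background. Over the whole interval Fstl1 was 1.83-fold higher, and its 2 probe sets gave 0.82 and 0.87. Fst, which encodes the activin-binding follistatin, read 23.39, 22.89 and 23.83 in order of time, lowest at day 14 like Grem1. The day 14 value of Fst was close to the background of 22.57, unlike that of Grem1 (26.09).

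As read here, the other BMP target genes did not share the course of Id4 or Smad6, but several lay at or near the background. Of 11 on the array, 6 were above the background on at least 1 array, and the median differences ran from -0.10 to -0.03 over the 3 comparisons. In any comparison 0 were 2-fold higher, where 5.46% (first step), 2.21% (second) and 6.57% (whole interval) of all genes were. Gata3 alone was 2-fold lower as measured, in the first step, where 3.91% of all genes were lower. So few genes cannot be told apart from these shares. Gata3 was above the background at day 6 alone and at least 1.21-fold lower at day 14. Gata2 read 25.23, 25.12 and 25.37 in order of time, and Tbx3 24.66, 24.91 and 24.60. Msx1 read 22.84, 22.76 and 22.78, just above the background, Sp7 23.60, 23.55 and 23.52, and Atoh8 24.19, 24.02 and 23.91. Msx2, Dlx2, Dlx3, Dlx5 and Hey1 did not exceed the background on any array. Near or below the background a change in level may not show.

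The E protein genes, whose products ID proteins bind, were all above the background, and less than 2-fold apart on their main probe sets. They are too few to set beside the shares of all genes. Tcf4 read 27.96, 28.88 and 28.71 in order of time, and its 5 probe sets gave 0.87 to 1.05 in the first step. Tcf12 differed by 0.48 there, while its 5 probe sets ran from -0.001 to 0.81. Tcf3 differed by -0.33 in that step, and its 3 probe sets gave -0.74 to -0.33.

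**Figure D4:**
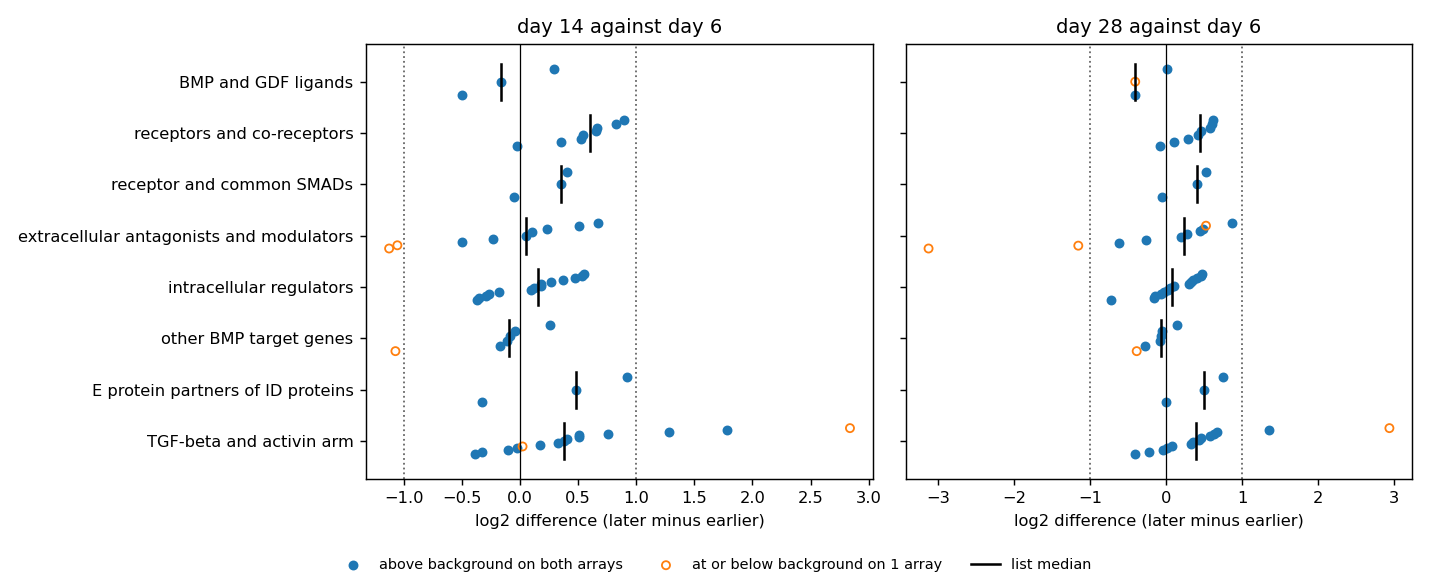
Log2 difference, later minus earlier array (horizontal axis), of genes in 8 lists for day 14 against day 6 and day 28 against day 6, each point the main probe set of 1 gene. Filled points were above the background on both arrays, open points on 1, black bars are list medians over all points, and dotted lines mark 2-fold. Receptors lie mostly right of 0 but inside 2-fold. The open points far left are Bmper and Tll1, joined by Gata3 for day 14 against day 6 only, and the open point far right is Tgfbi.

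The genes with the most similar course were sought among 12007 genes above the background on at least 1 array, by Euclidean distance in the 2 steps over the 3 arrays. For Id4 the search gave Ceacam10, Kif26a and Slfn10-ps, each above the background on 1 array. One of their steps thus lies between readings below the background, and no shared course is read from them. Nearest to Id3 were Marveld3, Atp10b and Lmcd1, at 0.27 to 0.41 log2 units, each above the background on 2 arrays, so at least 1 of their steps uses a reading below it. Smad6 was matched most closely by Efcab1, Ccdc62 and Gpr146 (0.03 to 0.04, of which Gpr146 was above the background on all arrays), Bambi by Clvs1, Ttyh2 and Gas7 (0.01 to 0.06), and Grem1 by Slc22a4, Scx and Tmem171 (0.03 to 0.10, with Scx above it on 2 arrays). With 3 arrays many genes share a course.

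Markers of the labelled cell type and of others moved over the same arrays. Of 12 melanocyte markers, 10 were above the background on at least 1 array, and Tyr and Kit on none. Their list mean, a mean of log2 values over its genes, read 24.31 (day 6), 25.95 (day 14) and 25.37 (day 28), and 6 were 2-fold higher at day 14 than at day 6, among them Mitf, Dct and Mlana, and 1 lower (Ednrb, below the background at day 14), where 5.46% of all genes were higher and 3.91% lower. Of these markers, 0 were higher in the second step and 4 lower (Dct, Tyrp1, Slc45a2 and Gpr143), where 2.21% of all genes were higher and 1.45% lower. Of 5 smooth muscle markers, 3 were above the background (Acta2, Tagln and Actg2). The list mean over all 5 was 25.61, 24.47 and 24.05 in order of time. That mean includes Myh11 and Cnn1, both below the background on every array, and Cnn1 read 22.36, 20.55 and 20.08. Schwann markers, 3 of 4 above it on at least 1 array, with S100b and Erbb3 above the background on all arrays and Gfap on none, had a list mean of 24.43, 25.54 and 25.08. Among them Mbp ran the other way, reading 23.93, 23.30 and 22.43, the last below the background. Of 6 endothelial markers, Cdh5 alone was above the background, reading 23.70, 25.85 and 27.93, while Pecam1, Kdr, Tek, Tie1 and Emcn were below it on all arrays. Fibroblast markers had 6 of 8 above it on at least 1 array (list mean 23.16, 23.59 and 23.47, with Lum and Thy1 below throughout), leukocyte markers 4 of 6 (23.18, 23.20 and 23.75, with Ptprc and Itgam below throughout), and keratinocyte markers 2 of 5 (22.83, 22.64 and 22.80, with Krt1, Krt14 and Trp63 below). Within the leukocyte list Lyz2 read 24.57, 27.17 and 27.31, while Cd68 read 25.09, 23.98 and 25.99, lowest at day 14. In RNA from whole cultures, fewer cells of a type and less RNA per cell cannot be told apart, and the part of these shifts in the courses of the ID and BMP genes was not tested.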

How the data were processed

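Total RNA was labelled with biotin by the array maker's protocol and measured on Affymetrix arrays, per the labels. Each of 45101 probe sets had 1 deposited value an array, read as log2 from the range of the values. The sources used here give neither the summarization, the log base nor the constant behind a median of 22.9. Sorting showed an identical set of values in all 3 columns, so the authors had quantile normalized them. Hybridization controls rose by 0.77 to 0.80 units per log2 unit of their nominal concentration.

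Names came from the platform annotation, and current symbols from gene identifiers (34958 with 1 gene, 932 with several, 9211 not listed). A gene was described in a comparison when its main probe set exceeded the background on either array. The background came from 57 silent genes of 65 listed. Where the dimmer array lay at or below it, the fold is a lower bound against it, while counts and medians used values as measured. Calls were made at a log2 difference of 1. The number of arrays limits the precision.

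All 10 genes were described with every probe set. Named beside them were up to 4 genes of each pathway list with the widest range, cell type markers, and the 3 nearest genes of each of the 10 that ranged over at least 1 log2 unit. Other genes were chosen after their values were seen. The genes, lists and alternatives were chosen with earlier results of these data known. Steps were tested on simulated data. Python 3.11.15, numpy 2.4.6 and pandas 2.3.3 were used.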

Additional observations from a re-analysis of the deposited data

How the results depend on the processing

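Alternatives covered equal hybridization controls, the mean of all probe sets, omission of probe sets that may detect several transcripts, a 75th percentile background, dim values raised to the background, and a 1.5-fold line. Of 120 gene differences recomputed under the first 5, 117 moved by less than the SD between probe sets, and no called difference changed sign. The other 3 came from omitting shared probe sets, where Id2 gave 1.15 for day 14 against day 6, from a probe set below the background at day 6, and -0.46 for day 28 against day 14, and Smad7 gave -0.17 there too. Most of the 120 could not move, so the count is no measure of robustness. The higher percentile and the raised dim values left the followed genes unchanged, since all lay above the background on every array. Equal controls shifted every gene by 1 amount per comparison, smaller than that SD. The probe set alternatives could not change genes with 1 probe set. The 75th percentile background brought in Bmp4 and Bmp7 and put the median difference for day 14 against day 6 at 0.39 in place of 0.99, and over the whole interval at 0.21 in place of 0.43. At 1.5-fold, 5 genes were apart for day 28 against day 6, 4 higher and 1 lower (15.7% and 12.2% of all genes). For day 14 against day 6, 2 were lower at that line (14.3% of all genes), and for day 28 against day 14, 4 were apart, 3 of them higher (12.0% and 7.60% of all genes). No paired analysis was possible because each time point had 1 array and no test was made. Signal near the background limits Smad6 and 1 probe set each of Id2 and Id4 at day 6.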

Other observations

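Genes of the related TGF-beta and activin branch, which signals through SMAD2 and SMAD3, were read on the same arrays. Of 15 on the array, all were above the background on at least 1 array. For day 14 against day 6, 3 were 2-fold higher (Tgfbr3, Tgfbi and Ccn2) and 0 lower, with a median log2 difference of 0.37, where 5.46% of all genes described were higher and 3.91% lower. For day 28 against day 6, 2 were higher (Tgfbr3 and Tgfbi) and 0 lower, with a median of 0.39, where 6.57% and 4.04% of all genes were. For day 28 against day 14, Ccn2 was lower and 0 were higher, with a median of 0.06, where 1.45% of all genes were lower and 2.21% higher.

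Tgfbi, which encodes an extracellular matrix protein induced by TGF-beta in many cells, read 21.98 at day 6, below the background, 24.82 at day 14 and 24.92 at day 28. Against the background at day 6 it was at least 4.30-fold higher at day 14 and at least 4.59-fold higher at day 28. Ccn2, which encodes a secreted matricellular protein, read 26.54, 28.32 and 26.87 in order of time, a peak at day 14 like that of Id3. Its day 14 value was 3.43-fold that of day 6, and at day 28 it was 2.74-fold lower than at day 14. The co-receptor gene Tgfbr3 read 26.69, 27.98 and 28.04, while another of its probe sets gave -0.15 for day 14 against day 6. In the same comparison Tgfbr2 differed by 0.76, and Smad3 differed by 0.40. The 2 probe sets of Smad2 gave -0.39 and 0.31, so its sign is not settled.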
